A study of Mus musculus with 9 samples.

Results

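Homologous recombination and the Fanconi anemia pathway were examined in mouse bone marrow derived macrophages (BMDMs) through 39 genes of 53465 in the deposited count table. The genes were chosen by name as known actors of these pathways, with earlier results of these data known. Calls among them therefore do not stand for all genes of these pathways. Each symbol was matched to its row of counts. Where a symbol stood on several rows the row with most reads was kept, which applied to Topbp1. They were grouped by role into 12 genes of strand invasion and its mediators, 9 of the Fanconi core complex and its ubiquitin transfer, 3 of the FANCI-FANCD2 step with its linked helicase, 5 of end sensing and resection, 6 checkpoint kinases and adaptors, and 4 of joint resolution, alternative end joining and mismatch sensing.

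RNA-Seq was performed on 9 libraries of BMDMs from male wild-type C57BL/6 mice, grown in medium with the growth factor CSF1 (50 ng/ml). There were 3 untreated libraries (UNX), 3 after exposure to medium conditioned by pulmonary artery adventitial fibroblasts of control calves (CO-CM), and 3 with medium from fibroblasts of calves with hypoxia-induced pulmonary hypertension (PH-CM). Each conditioned medium was a pool over several fibroblast populations, so the 3 libraries of a group do not sample different calves one by one. The labels give 16 h of treatment in one place and 24 h in another. The paper names serum as the supplement of the conditioned media and does not state whether CSF1 was added to them. A change of CSF1 or of medium cannot be told apart from the fibroblast conditioning in the comparisons with UNX.

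Homologous recombination repairs a broken chromosome from its sister copy. The break is resected to single strands, a mediator complex built around BRCA1, PALB2 and BRCA2 loads the strand-exchange recombinase, and helicases and nucleases then dissolve or cut the joined molecules. The Fanconi pathway removes crosslinks between the strands: a core complex with ubiquitin ligase activity marks the FANCI-FANCD2 pair, which directs the cutting of the lesion and hands it to recombination. Both routes are used mainly in S and G2 phase, and many of their genes are transcribed with the cell cycle. CSF1 is a growth factor for macrophages, and BMDM cultures can hold dividing cells.

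The libraries held between 62017933 and 84314201 counted reads, of which 25642 to 108572 lay on the 39 genes. CPM below are counts scaled to library size with TMM factors between 0.966 and 1.046, and all 39 genes passed the filter of a CPM above 1 in at least 3 libraries, as did 11950 genes in all. In all 9 libraries 35 of the 39 had a CPM above 1, and Rad51b, Rad51c, Rad54b and Chek1 did not. Macrophage markers were high in every library, with a summed CPM over 8 genes of 11801 to 12595 in UNX, 18984 to 19939 in CO-CM and 21427 to 23236 in PH-CM. Most of this was Lyz2, at 6844 to 7546, 12516 to 13016 and 14464 to 15645 CPM in these groups. Csf1r, Adgre1, Cd68 and Mertk were also higher in both media than in UNX. Cd14 was lower in CO-CM (158 to 189 CPM) and higher in PH-CM (734 to 888) than in UNX (286 to 334). Itgam and Fcgr1 overlapped between CO-CM and UNX. Fibroblast markers, 8 genes of which 6 were tested, summed to 197 to 249, 266 to 318 and 249 to 335 CPM, most of it Col1a1 at 99.7 to 133 in UNX. Markers of neutrophils and myeloid progenitors summed to 3.51 to 5.10, 2.22 to 4.14 and 1.64 to 1.98 CPM over 10 genes. Of these only Kit passed the filter, at 1.54 to 3.30 CPM in UNX, 1.72 to 2.33 in CO-CM and 0.257 to 0.316 in PH-CM. The others did not all follow it. Between UNX and PH-CM, Ltf was lower in PH-CM (0.216 to 0.535 against 0.0891 to 0.0964). Prtn3 was higher in PH-CM (0.0232 to 0.106 against 0.178 to 0.321), and Cd34 overlapped (0.503 to 1.49 against 0.771 to 1.29). Lymphoid markers (7 genes, at most 0.225 CPM summed) and dendritic cell markers (6 genes, at most 1.29 CPM summed) were not tested because none passed the filter. The part of these markers in the results below was not tested. In bulk libraries, fewer cells that express a gene and less RNA of it per cell cannot be told apart.

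Both conditioned media lowered most of the 39 repair genes, and PH-CM lowered many of them further than CO-CM. Summed over the 39 genes, the CPM was 1225 to 1341 in UNX, 466 to 495 in CO-CM and 406 to 429 in PH-CM. A gene was called when its false discovery rate (FDR, edgeR quasi-likelihood test, over all 11950 genes) was no higher than 0.05 and it changed by 1.2-fold or more. Against UNX, CO-CM lowered 34 of the 39, where 28.9% of all genes tested were called lower, and raised 1, where 28.0% were called higher. PH-CM lowered 37 of the 39 against UNX, with 31.7% of all genes called lower, and raised 1, with 31.3% called higher. The median log2 fold change of the 39 genes was -1.60 under CO-CM and -2.14 under PH-CM, beside 0.00 and 0.01 over all genes tested. Both comparisons rest on the same UNX libraries.

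The fall was deep for part of the genes and shallow for others. Under PH-CM 10 of the 39 were at or below 10% of their UNX level, 21 at or below 25% and 14 remained above 50%. Under CO-CM none was at or below 10%, 17 were at or below 25% and 13 remained above 50%. The CPM of the groups did not overlap between CO-CM and UNX for 38 of the 39, against 72.0% of all genes tested, nor between PH-CM and UNX for 38, against 77.7%. For 36 genes all 3 UNX libraries stood above all 6 treated libraries, and the others were Rad52, Fance and Chek2. The share of all genes tested with this order was not computed.

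**Figure D1:**
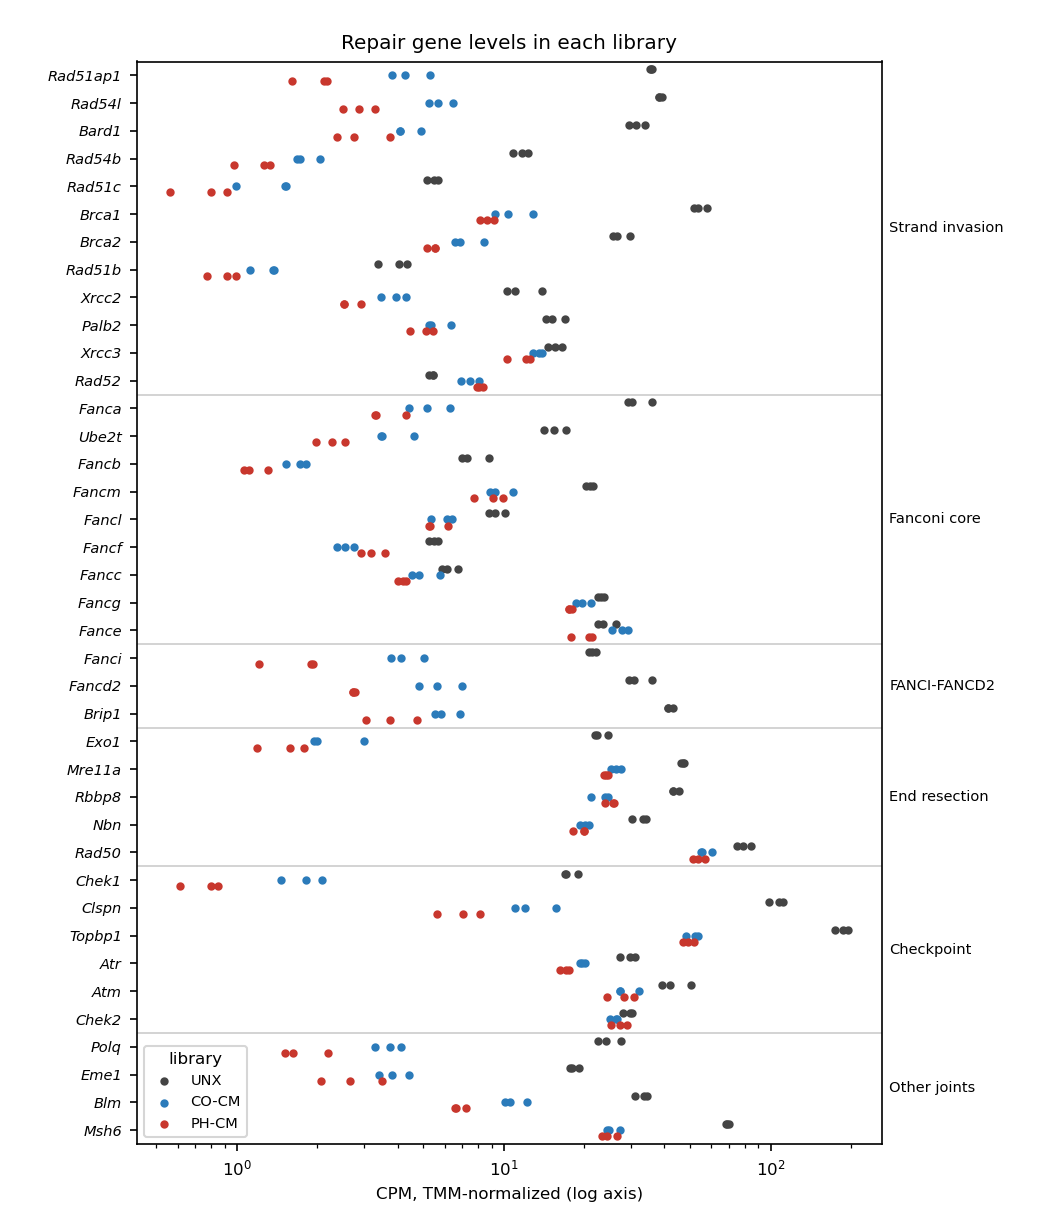
CPM of each of the 39 repair genes (log axis) in the 9 libraries, 1 point per library, grouped by role and sorted by the change under PH-CM. The UNX points lie right of all treated points for 36 genes, while Rad52 runs the other way and Chek2 and Fance overlap.

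Promoters were examined for short words bound by cell cycle regulators, since most of these genes moved together. RefSeq windows of GRCm38.p6, from 250 bases before to 50 after an annotated start, were found for 32 of the 39 genes (35 windows), and none was matched for Rad54b, Xrcc2, Fancd2, Exo1, Rbbp8, Rad50 and Nbn. The E2F words TTTCCCGC, TTTCGCGC, TTTGCCGC and TTTGGCGC, on either strand, were present for 8 of 32 genes (25.0%), in 2.26% of all 32851 windows and in 3.97% of the 11524 windows of genes tested. These genes were Brca2, Bard1, Rad51c, Fancg, Chek2, Topbp1, Clspn and Msh6. The CHR words TTTGAA and TTCGAA, bound by DREAM and MYB-MuvB complexes, were in 15.6% of the genes, against 19.2% of all windows and 14% of those of genes tested. The CCAAT box of NF-Y was in 62.5%, against 37.4% and 38%, again on either strand. No 2 matched words overlapped in these windows. Their median GC content was 59.7%, beside 52.7% over all windows and 60.7% over those of genes tested.

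Windows are printed below for 4 genes with an E2F word, of which Clspn and Bard1 fell deeply, Brca2 is a central mediator and Chek2 was not called in any comparison, and for Rad52, the gene that rose, which holds none of the words. Each is written 5′ to 3′ on the strand of the gene, and the words are in capitals, with ATTGG for CCAAT read on the opposite strand. They lie at chr4:126556730-126557029 (plus strand), chr1:71102923-71103222 (minus strand), chr5:150522371-150522670 (plus strand), chr5:110839733-110840032 (plus strand) and chr6:119902448-119902747 (plus strand), each across a RefSeq start.
Clspn: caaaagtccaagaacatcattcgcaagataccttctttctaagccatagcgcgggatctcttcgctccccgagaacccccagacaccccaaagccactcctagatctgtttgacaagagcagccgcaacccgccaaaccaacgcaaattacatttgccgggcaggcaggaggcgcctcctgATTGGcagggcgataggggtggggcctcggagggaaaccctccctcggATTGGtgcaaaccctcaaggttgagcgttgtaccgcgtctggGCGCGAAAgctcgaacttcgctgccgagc
Bard1: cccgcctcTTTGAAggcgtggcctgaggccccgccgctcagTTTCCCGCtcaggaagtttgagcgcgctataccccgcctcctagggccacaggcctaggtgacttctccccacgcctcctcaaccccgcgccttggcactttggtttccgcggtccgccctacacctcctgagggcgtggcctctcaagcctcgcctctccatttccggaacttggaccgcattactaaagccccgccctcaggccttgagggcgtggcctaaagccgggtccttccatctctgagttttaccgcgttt
Brca2: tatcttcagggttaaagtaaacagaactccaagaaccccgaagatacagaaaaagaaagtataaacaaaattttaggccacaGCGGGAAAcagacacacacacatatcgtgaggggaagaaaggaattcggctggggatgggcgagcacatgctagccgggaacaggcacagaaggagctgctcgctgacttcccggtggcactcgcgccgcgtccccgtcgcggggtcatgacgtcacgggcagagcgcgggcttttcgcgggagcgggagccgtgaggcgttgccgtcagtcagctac
Chek2: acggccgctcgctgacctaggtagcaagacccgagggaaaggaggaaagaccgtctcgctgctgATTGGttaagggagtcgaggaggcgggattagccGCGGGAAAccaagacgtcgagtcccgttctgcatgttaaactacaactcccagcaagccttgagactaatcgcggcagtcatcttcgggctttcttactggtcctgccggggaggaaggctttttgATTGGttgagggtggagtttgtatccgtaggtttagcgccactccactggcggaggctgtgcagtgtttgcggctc
Rad52: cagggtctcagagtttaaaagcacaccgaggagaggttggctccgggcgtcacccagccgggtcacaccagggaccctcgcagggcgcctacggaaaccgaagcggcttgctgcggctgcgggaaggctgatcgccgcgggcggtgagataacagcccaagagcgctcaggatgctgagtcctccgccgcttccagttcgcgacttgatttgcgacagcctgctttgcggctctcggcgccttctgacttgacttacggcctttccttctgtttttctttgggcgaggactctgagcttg
Clspn holds GCGCGAAA, the E2F word on the other strand, starting at base 22 when the start site is counted as base 1, with 2 CCAAT boxes before it. Chek2 holds GCGGGAAA and 2 CCAAT boxes, and Bard1 holds a CHR word before its E2F word. The median log2 fold change under PH-CM was -2.12 for the 8 genes with an E2F word and -2.21 for the 24 without, and under CO-CM -1.88 and -1.59. Chek1, the deepest fall under PH-CM, had none of these exact words in its window at chr9:36726609-36726908. The last bases of that window, ttttggcgggaa, come near the word TTTGGCGC and were not counted. The window lies within the annotated gene (36708482 to 36727065, minus strand), so the outermost annotated start was not covered. The windows of Fancc, Fancl and Fanci likewise lie within their annotated genes. All of these windows were kept in the shares and medians above. A match is a run of letters and not evidence of binding.

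**Figure D2:**
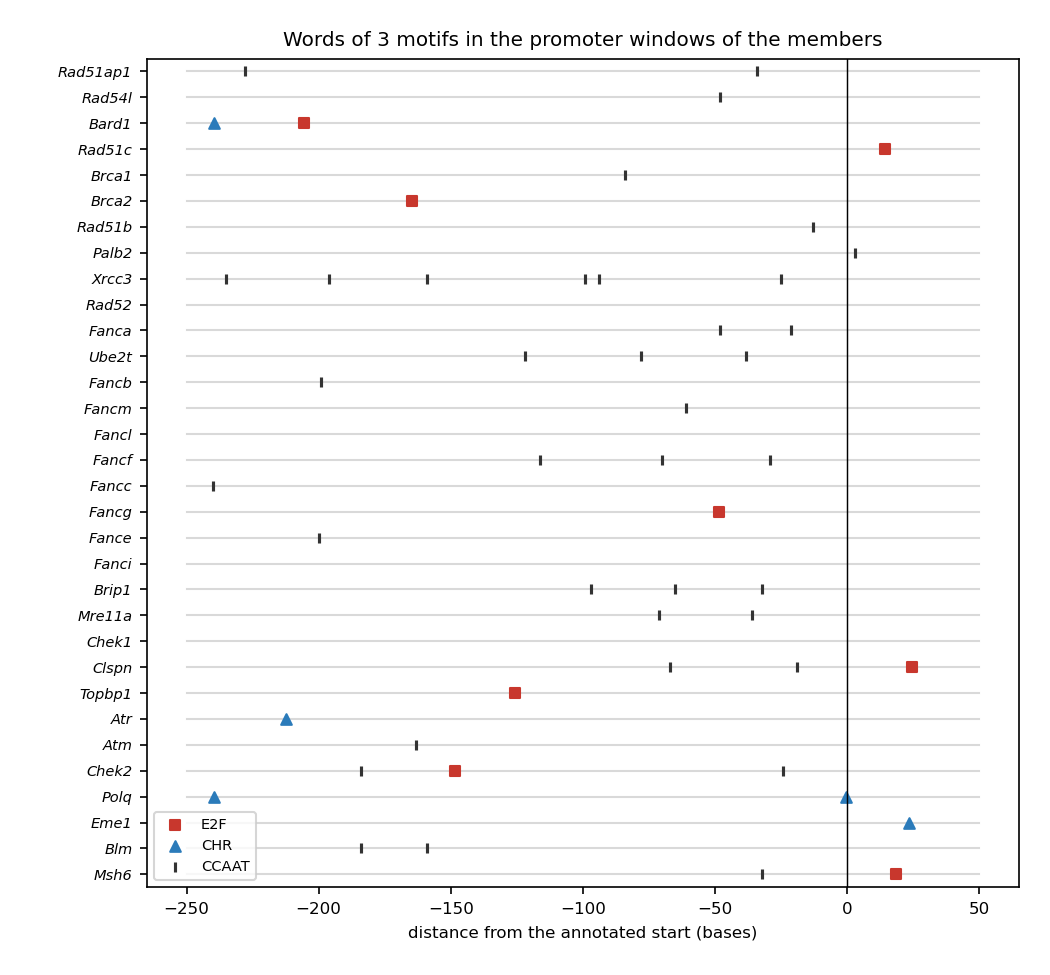
Positions of the E2F, CHR and CCAAT words in the first promoter window of 32 repair genes, as distance in bases from the annotated start. E2F words (red squares) appear in 8 genes at scattered distances, and CCAAT boxes (black ticks) in most others.

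The breast cancer susceptibility genes and their partners were called lower under both media. Brca1, whose product forms a ubiquitin ligase with BARD1 and promotes resection, had a CPM of 57.5, 53.2 and 51.4 in the 3 UNX libraries, 9.29, 10.4 and 12.9 in CO-CM and 8.64, 9.18 and 8.12 in PH-CM. The 3 groups did not overlap, and the log2 fold change was -2.31 ± 0.109 (SE; FDR = 4.53e-08) under CO-CM and -2.64 ± 0.112 (FDR = 1.15e-08) under PH-CM. Its partner Bard1 was at 29.4 to 33.7 CPM in UNX, 4.09 to 4.90 in CO-CM and 2.38 to 3.74 in PH-CM, log2 fold changes of -2.85 ± 0.141 and -3.41 ± 0.147. Brca2, which carries the recombinase to single-stranded DNA, was at 29.7, 25.7 and 26.6 CPM in UNX, 6.59, 6.87 and 8.45 in CO-CM and 5.14, 5.54 and 5.51 in PH-CM. All untreated libraries were above all treated ones, with changes of -1.90 ± 0.10 (FDR = 8.90e-08) and -2.34 ± 0.103 (FDR = 1.55e-08). Palb2, which bridges BRCA1 and BRCA2, was called lower to a smaller degree, with -1.46 ± 0.108 and -1.63 ± 0.109.

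Rad51ap1 and Rad54l fell the most within the strand invasion group under PH-CM. Rad51ap1, a cofactor that stimulates joint formation, was at 35.5, 35.3 and 36.0 CPM in UNX, 3.83, 4.27 and 5.30 in CO-CM and 2.12, 1.61 and 2.18 in PH-CM. PH-CM libraries thus held 5.55% of the untreated level, a log2 fold change of -4.17 ± 0.136 (edgeR FDR = 2.12e-09), and CO-CM libraries 12.6%, a change of -2.99 ± 0.124 (FDR = 1.93e-08). Rad54l, a translocase that drives strand invasion and remodels the joint, was at 39, 38.1 and 38 CPM in UNX, 5.27, 5.69 and 6.46 in CO-CM and 2.88, 2.49 and 3.30 in PH-CM. The groups were again apart, with changes of -2.72 ± 0.098 and -3.73 ± 0.106. Its exons share 1184 bases with Lrrc41 on the opposite strand, and the strand setting of the counting was not stated. The related Rad54b fell by 2.67 ± 0.130 under CO-CM and 3.28 ± 0.137 under PH-CM on the log2 scale.

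The recombinase paralogs form small complexes that stabilize the recombinase filament, and they did not behave alike. Rad51c was at 5.16 to 5.69 CPM in UNX, 0.993 to 1.53 in CO-CM and 0.564 to 0.917 in PH-CM, log2 fold changes of -2.01 ± 0.194 and -2.84 ± 0.209. Rad51b changed by -1.60 ± 0.160 and -2.14 ± 0.167, and Xrcc2 by -1.58 ± 0.133 and -2.14 ± 0.138. Xrcc3, the complex partner of RAD51C, was at 14.7 to 16.5 CPM in UNX, 12.9 to 13.9 in CO-CM and 10.3 to 12.5 in PH-CM. Its change under CO-CM, -0.22 ± 0.082 (FDR = 0.0378), was below the fold threshold and was not called, and the change under PH-CM was -0.42 ± 0.083 (FDR = 0.000861). The ratio of Rad51c to Xrcc3 in RPKM, the deposited reads scaled to exon length and library size, was 0.196 to 0.233 in UNX, 0.0483 to 0.0708 in CO-CM and 0.0343 to 0.0461 in PH-CM, so the balance of these partners' transcripts differed between untreated and treated cells without overlap.

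Rad52, which anneals complementary single strands and is the mediator of a BRCA2-independent route, was the only one of the 39 called higher than in UNX. Its CPM was 5.27, 5.41 and 5.44 in UNX, 7.48, 8.11 and 6.90 in CO-CM and 8.11, 8.33 and 7.92 in PH-CM. Every treated library was above every untreated one, by 1.39-fold under CO-CM (log2 0.48 ± 0.084, edgeR FDR = 0.000482) and by 1.51-fold under PH-CM (log2 0.59 ± 0.084, FDR = 8.70e-05). Between the media it was not called, with a log2 difference of 0.11 and a 95% interval of -0.07 to 0.30. Per length, the ratio of Rad52 to Brca2 rose from 0.420 to 0.500 in UNX to 1.94 to 2.80 in CO-CM and 3.40 to 3.74 in PH-CM, as RPKM.

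**Figure D3:**
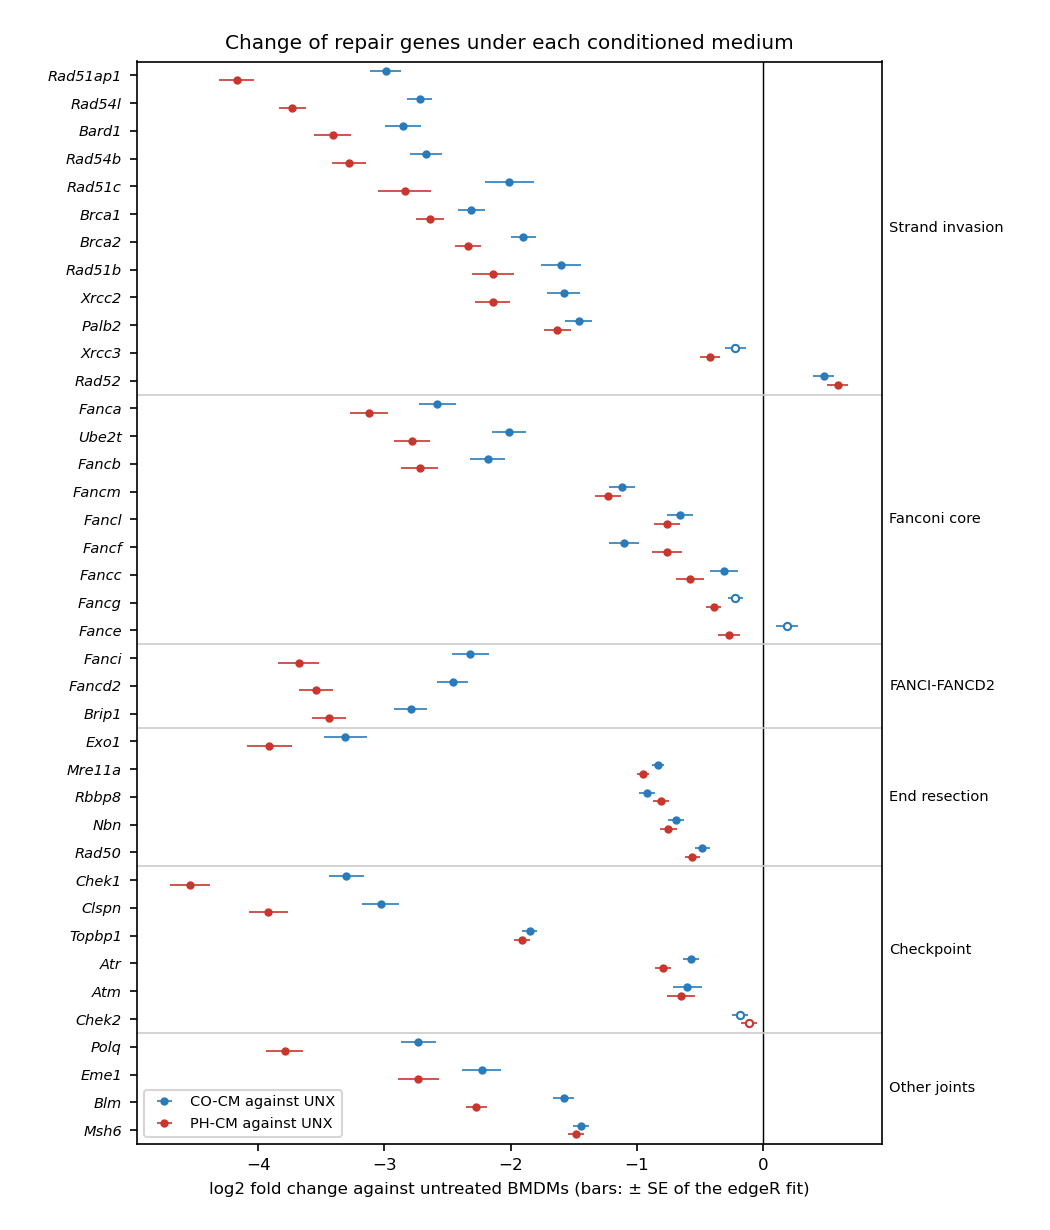
Log2 fold change against UNX of each repair gene under CO-CM (blue) and PH-CM (red), with ± SE of the edgeR fit and hollow points for genes that were not called. Chek1 lies farthest left under PH-CM at -4.54, and Rad52 is the only gene called to the right of 0.

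Genes of the Fanconi core complex ranged from deep falls to small changes. Under CO-CM 7 of 9 were called lower and under PH-CM all 9, beside 28.9% and 31.7% of all genes tested. The median log2 fold changes were -1.10 and -0.76. Fanca fell by 2.58 ± 0.145 and 3.12 ± 0.151 on the log2 scale under CO-CM and PH-CM, from 29.2 to 35.9 CPM in UNX to 4.42 to 6.30 and 3.31 to 4.32. Fancb, whose product pairs with the ligase subunit FANCL, changed by -2.18 ± 0.139 and -2.72 ± 0.146, and Ube2t, the E2 enzyme that hands ubiquitin to that ligase, by -2.01 ± 0.134 and -2.78 ± 0.141. Fancm, the translocase that anchors the complex on DNA, was called lower at a middle level, with -1.12 ± 0.102 and -1.23 ± 0.103. The ligase subunit itself, Fancl, changed less, by -0.66 ± 0.103 and -0.76 ± 0.104.

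The adaptor subunits Fancc, Fancg and Fance kept most of their untreated level, while a further adaptor, Fancf, was at 46.7% of UNX under CO-CM and 59.0% under PH-CM. Fancc was at 80.4% of UNX under CO-CM (log2 -0.31 ± 0.11, FDR = 0.0259) and 66.8% under PH-CM (-0.58 ± 0.112, FDR = 0.000750). The first of these calls was lost without the first UNX library (-0.27, FDR = 0.0732) and without the first (-0.24, FDR = 0.0921) or the third CO-CM library (-0.28, FDR = 0.0791). Fancg changed by -0.22 ± 0.060 under CO-CM, below the fold threshold, and by -0.39 ± 0.060 under PH-CM. Fance, which links the core to FANCD2, was at 22.5, 23.5 and 26.4 CPM in UNX, 25.5, 29.3 and 27.7 in CO-CM and 17.8, 20.8 and 21.4 in PH-CM. The CO-CM and UNX values overlapped and the difference was not called (0.19, 95% interval -0.01 to 0.38), whereas all PH-CM values were the lowest (-0.27 ± 0.089, FDR = 0.0181). That call was lost without the first PH-CM library (-0.19, FDR = 0.0729) and without the third UNX library (-0.21, FDR = 0.0712). Within the complex, the RPKM ratio of Fanca to Fancg went from 0.532 to 0.688 in UNX to 0.0900 to 0.140 in CO-CM and 0.0796 to 0.107 in PH-CM.

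Opposite-strand exon overlaps with other tested genes touched several of the Fanconi genes: 920 bases between Fanca and Zfp276, 921 between Fanci and Polg, 462 between Fancl and Vrk2, 253 between Fancf and Gas2 and 185 between Fancc and 2010111I01Rik. Without a stated strand setting, reads in those stretches cannot be assigned to one gene of the pair. How far this touched the levels was not tested.

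The FANCI-FANCD2 pair, the substrate of the core complex, and the helicase Brip1 fell more than the core, with a median log2 fold change of -2.46 under CO-CM and -3.54 under PH-CM. Fancd2 was at 35.9, 29.5 and 30.8 CPM in UNX, 4.83, 5.62 and 6.98 in CO-CM and 2.72, 2.73 and 2.78 in PH-CM. Fanci was at 22.2, 20.9 and 21.5 CPM in UNX, 3.77, 4.11 and 5.01 in CO-CM and 1.89, 1.21 and 1.93 in PH-CM. For both genes the 3 groups formed separate steps, with log2 fold changes under PH-CM of -3.54 ± 0.135 for Fancd2 and -3.68 ± 0.162 for Fanci, and under CO-CM of -2.46 ± 0.125 and -2.32 ± 0.146. The RPKM ratio of Fancd2 to Fanci was 1.02 to 1.18 in UNX, 0.933 to 1.01 in CO-CM and 1.05 to 1.65 in PH-CM, so the transcripts of the pair stood at a ratio of 0.933 to 1.18 in 8 of the 9 libraries. Brip1, the helicase that binds BRCA1, was at 41.1 to 43.1 CPM in UNX, 5.53 to 6.83 in CO-CM and 3.04 to 4.74 in PH-CM, changes of -2.79 ± 0.131 and -3.44 ± 0.137.

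Among genes of end sensing and resection only the exonuclease fell steeply. Exo1, which performs long-range resection, was at 24.6, 21.9 and 22.4 CPM in UNX, 2.00, 1.94 and 3.0 in CO-CM and 1.78, 1.19 and 1.58 in PH-CM. This gave 10.1% of the untreated level under CO-CM (log2 -3.31 ± 0.171, FDR = 7.95e-08) and 6.63% under PH-CM (-3.91 ± 0.180, FDR = 2.02e-08). The MRN complex, which senses the broken end, kept over 50% of its level: Rad50 was at 71.9% and 68.0% of UNX, Nbn at 62% and 59.7%, and Mre11a at 56.3% and 51.6% under CO-CM and PH-CM. Rad50, the ATPase of the complex, had a CPM of 84.1, 78.6 and 74.9 in UNX, 60.5, 54.8 and 55.5 in CO-CM and 56.8, 53.5 and 51.2 in PH-CM. All 3 MRN genes were called lower in both comparisons, and treated and untreated libraries did not overlap. Rbbp8, which encodes the CtIP cofactor that starts resection, was at 43.2 to 45.4 CPM in UNX, 21.2 to 24.6 in CO-CM and 24.0 to 25.8 in PH-CM, changes of -0.92 ± 0.064 and -0.81 ± 0.064.

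Among the checkpoint genes the 2 effector kinases differed in level and in change. Chek1, the kinase activated by ATR at stalled forks and resected ends, was at 19.0, 16.9 and 17.1 CPM in UNX, 1.46, 1.82 and 2.08 in CO-CM and 0.802, 0.611 and 0.853 in PH-CM. That was 10.1% of the untreated level under CO-CM (log2 -3.30 ± 0.139, edgeR FDR = 2.11e-08) and 4.29% under PH-CM (-4.54 ± 0.155, FDR = 2.84e-09), the largest fall of the 39 under PH-CM. Only 11 of the 11950 genes tested had a lower fold change there. Chek2, the kinase activated by ATM at double-strand breaks, was at 30.3, 29.8 and 27.9 CPM in UNX, 26.6, 24.9 and 26.4 in CO-CM and 29, 25.2 and 27.2 in PH-CM. It was the only member called in no comparison, with 95% intervals of -0.32 to -0.03 under CO-CM (FDR = 0.0296, below the fold threshold) and -0.25 to 0.03 under PH-CM. In RPKM, Chek1 to Chek2 stood at 0.367 to 0.407 in UNX, 0.0356 to 0.0509 in CO-CM and 0.0157 to 0.0203 in PH-CM.

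Upstream of these kinases the adaptors fell and the sensor kinases moved less. Clspn, the adaptor that brings CHK1 to ATR, was at 111, 98.3 and 107 CPM in UNX, 11, 12 and 15.7 in CO-CM and 8.15, 5.61 and 7.02 in PH-CM, changes of -3.03 ± 0.146 and -3.92 ± 0.154. Topbp1, the activator of ATR, had the highest CPM of the 39 in UNX, at 195, 174 and 186, and was at 52.0, 48.2 and 53.5 in CO-CM and 51.6, 48.9 and 46.8 in PH-CM. The log2 fold change of Topbp1 was -1.85 ± 0.061 under CO-CM and -1.91 ± 0.061 under PH-CM. The log2 difference between the media was not called (95% interval -0.19 to 0.07). Atr was at 67.3% and 58.0% of UNX under CO-CM and PH-CM (log2 -0.57 ± 0.062 and -0.79 ± 0.063) and Atm at 66.1% and 63.6% (-0.60 ± 0.113 and -0.65 ± 0.113). The RPKM ratio of Atr to Atm overlapped between all 3 groups, at 0.270 to 0.310, 0.268 to 0.323 and 0.243 to 0.316.

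The remaining 4 genes were all called lower in both comparisons. Polq, the polymerase of the error-prone end joining that competes with recombination, was at 27.5, 22.6 and 24.1 CPM in UNX, 3.29, 3.74 and 4.13 in CO-CM and 2.20, 1.51 and 1.63 in PH-CM. Its level under PH-CM was 7.21% of untreated, a log2 fold change of -3.79 ± 0.147 (FDR = 6.49e-09), after -2.73 ± 0.136 under CO-CM. Eme1, a subunit of the MUS81 junction nuclease, changed by -2.23 ± 0.156 and -2.73 ± 0.162, and Blm, the helicase that dissolves double junctions, by -1.58 ± 0.081 and -2.27 ± 0.084. Msh6, a mismatch-binding protein, was at 68.3 to 69.7 CPM in UNX, 24.4 to 27.2 in CO-CM and 23.4 to 26.6 in PH-CM, so the 2 media overlapped. On the opposite strand, exons of Eme1 share 221 bases with Lrrc59 and 75 with Mrpl27, and those of Mre11a share 154 with Ankrd49. Those of Msh6 share 34 with Fbxo11 and those of Xrcc3 share 12 with Klc1, also on the opposite strand. Exons of Rad54b share 2068 bases with Fsbp, which lies on the same strand and did not pass the filter. A strand setting cannot separate that pair.

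PH-CM and CO-CM were then compared directly. Of the 39 genes, 22 were lower under PH-CM, where 15.0% of all genes tested were called lower, and 1 was higher, where 12.2% were called higher. The median log2 difference was -0.46 over the 39 genes and -0.01 over all genes tested, and the groups did not overlap for 27 of the 39, against 50.2% of all genes. All 3 groups formed descending steps without overlap, UNX above CO-CM above PH-CM, for 25 genes. How many of all genes tested form such steps was not computed. The count of 23 calls became 15 without the third CO-CM library and 15 without the third PH-CM library. It was 17 when the UNX libraries were left out of the fit, where Rad51c no longer passed the filter. Shares of all genes called under these settings are not given here.

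Genes that differed most between the media were Fanci at -1.36 ± 0.165 (FDR = 0.000129), Chek1 at -1.24 ± 0.169 (FDR = 0.000264), Rad51ap1 at -1.18 ± 0.139 (FDR = 0.000108), Fancd2 at -1.08 ± 0.137 (FDR = 0.000166), Polq at -1.06 ± 0.152 (FDR = 0.000373) and Rad54l at -1.01 ± 0.107 (FDR = 5.37e-05), on the log2 scale. These 6 were at 39% to 49.8% of their CO-CM level and belong to strand exchange, the FANCI-FANCD2 step, alternative end joining and the checkpoint. Clspn (-0.89 ± 0.150), Rad51c (-0.83 ± 0.221), Ube2t (-0.77 ± 0.144), Blm (-0.69 ± 0.084) and Brip1 (-0.65 ± 0.139) followed. By role, all 3 genes of the FANCI-FANCD2 group, 9 of 12 in strand invasion, 3 of 4 in joint resolution and 4 of 9 in the Fanconi core were lower. In end resection 1 of 5 and in the checkpoint group 2 of 6 were lower. Of all genes tested 15.0% were called lower, so the count in end resection was near that share. The groups are small and were chosen by name.

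Other genes were not called between the media. The 95% intervals of the log2 difference were -0.22 to 0.06 for Rad50, -0.20 to 0.09 for Nbn, -0.31 to 0.20 for Atm, -0.08 to 0.21 for Chek2 and -0.18 to 0.10 for Msh6. Atr (-0.22 ± 0.063, FDR = 0.0210) and Fancg (-0.17 ± 0.061, FDR = 0.0491) passed the FDR but not the fold threshold. Fancf was the gene called higher: its CPM was 5.25, 5.49 and 5.68 in UNX, 2.37, 2.54 and 2.76 in CO-CM and 2.91, 3.60 and 3.19 in PH-CM. It was called lower than UNX under both media, and its difference between them, 0.34 ± 0.120 (FDR = 0.0475), lost its call in 12 of 18 alternative analyses. The calls of Brca1 (-0.33 ± 0.111, FDR = 0.0384) and Eme1 (-0.50 ± 0.167, FDR = 0.0370) were likewise near the threshold. With the fold threshold kept, 14 of the 23 genes were called in every alternative, and the other 9 (Bard1, Brca1, Eme1, Exo1, Fanca, Fancb, Fancf, Rad51b and Rad51c) were not called in at least 1.

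**Figure D4:**
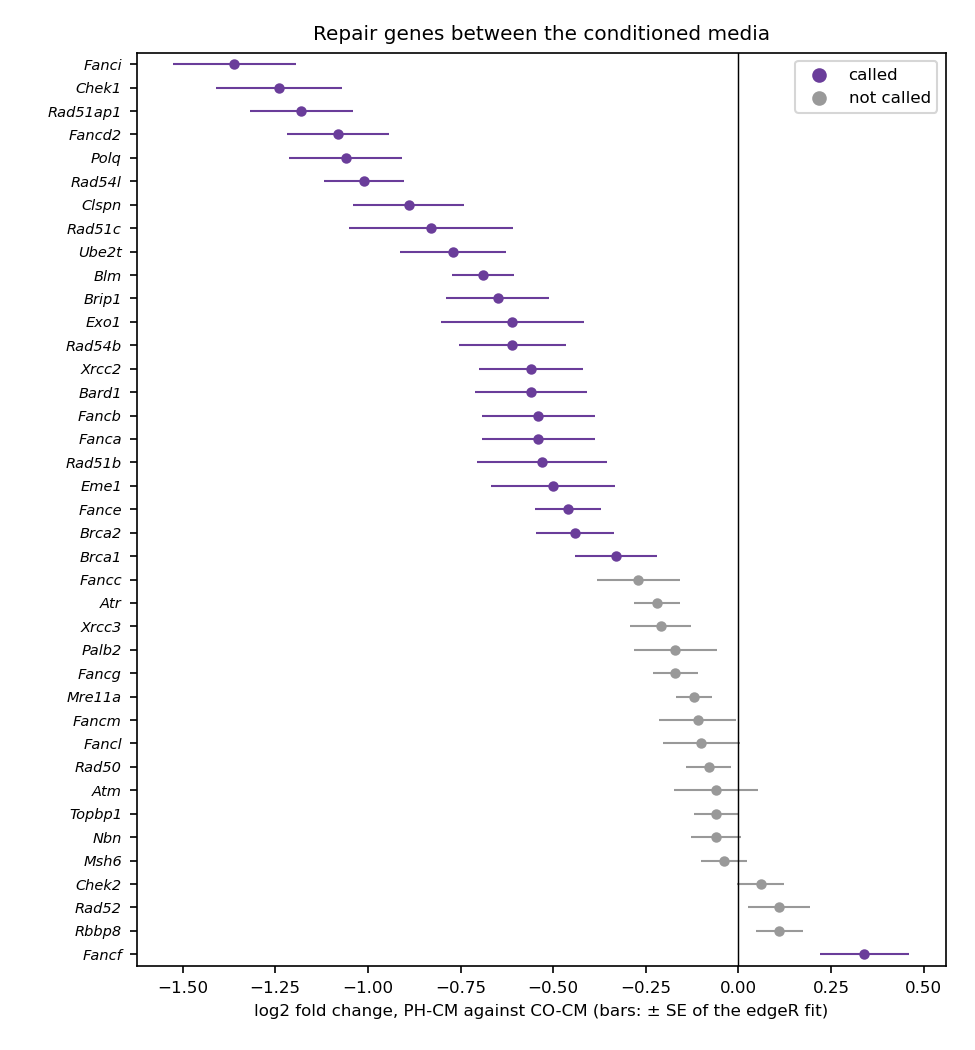
Log2 difference between PH-CM and CO-CM (negative: lower in PH-CM) for the 39 repair genes in order, with ± SE of the edgeR fit. Called genes are purple and run from Fanci at -1.36 to Brca1 at -0.33, with Fancf at 0.34 on the other side, and grey genes were not called.

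Per length, the order of the genes changed between groups. In UNX the highest RPKM were Topbp1 (median 16.9, range 15.8 to 18.1), Msh6 (16.5, 16.4 to 17.1), Clspn (15.1, 14 to 16.1) and Rad50 (15.0, 14.2 to 16.4), where Topbp1 overlapped Msh6 and Clspn overlapped Rad50. In CO-CM the highest was Rad50 at 10.1 (9.86 to 11.3), followed by Chek2 at 8.58 and Fance at 8.48, which overlapped. In PH-CM Rad50 (9.75, 9.38 to 10.6) and Chek2 (8.93, 8.24 to 9.71) overlapped at the top. The lowest medians in PH-CM were Polq at 0.165, Chek1 at 0.174, Rad51c at 0.180 and Exo1 at 0.185 RPKM, each overlapping its neighbour. Chek1 moved from rank 22 of 39 in UNX to rank 38 in PH-CM, and Rad52 from rank 38 to rank 14. Clspn to Topbp1 went from an RPKM ratio of 0.885 to 0.895 in UNX to 0.330 to 0.459 in CO-CM and 0.179 to 0.247 in PH-CM, without overlap.

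Genes around the 39 were read from lists of neighbouring pathways. Over all genes tested, 28.9% were called lower and 28.0% higher under CO-CM, and 31.7% lower and 31.3% higher under PH-CM. Of 30 other genes of recombination and the Fanconi pathway, 15 were called lower and 2 higher under CO-CM, and 16 lower and 4 higher under PH-CM, with medians of -0.34 and -0.41. Rmi2, of the BLM complex, changed by -3.37 ± 0.261 and -5.43 ± 0.336, and the single-strand binding subunit Rpa2 by -2.22 ± 0.089 and -2.63 ± 0.091. Slx1b, a structure-specific nuclease, and Faap20, a core complex partner, were higher, by 0.51 ± 0.099 and 0.37 ± 0.055 under CO-CM and 0.57 ± 0.099 and 0.44 ± 0.055 under PH-CM. Both were named after their values were seen. Of 19 other checkpoint genes, 13 were lower under CO-CM and 14 under PH-CM, with Timeless, which guards the fork, at -2.65 ± 0.116 and -3.54 ± 0.123.

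Replication and mitosis genes fell across the whole list. All 25 replication fork genes and all 20 mitosis genes were called lower under each medium, beside 28.9% (CO-CM) and 31.7% (PH-CM) of all genes tested. Their median log2 fold changes were -2.30 and -2.43 under CO-CM and -2.89 and -3.04 under PH-CM. Between the media 21 of 25 and 19 of 20 were lower under PH-CM, beside 15.0% of all genes tested, with medians of -0.50 and -0.69. Examples were Pole, the leading strand polymerase, at -3.02 ± 0.146 and -4.25 ± 0.159, and the cyclin Ccna2 at -2.84 ± 0.102 and -3.84 ± 0.108. Of 19 regulators of cell cycle transcription, 16 were lower under each medium: Mybl2, the activator of G2 genes, by -3.40 ± 0.139 and -4.09 ± 0.147, and the repressor E2f7 by -3.29 ± 0.160 and -4.42 ± 0.175.

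By list median, other repair routes moved less than the 39 repair genes, whose medians were -1.60 under CO-CM and -2.14 under PH-CM. This contrast holds for the 39 chosen genes. Of all genes tested, 28.9% were called lower and 28.0% higher under CO-CM, and 31.7% lower and 31.3% higher under PH-CM. The 30 other genes of recombination and the Fanconi pathway had medians of -0.34 and -0.41. Those of base excision and single-strand break repair were -0.23 and -0.34. For end joining without homology, 4 of 10 genes were higher and 1 lower under CO-CM, and 5 higher and 2 lower under PH-CM, with medians of 0.02 and 0.27. Dclre1c, the Artemis nuclease that opens hairpin ends, rose by 0.36 ± 0.078 and 1.2 ± 0.078, and Xrcc6, the Ku70 subunit, fell by 0.82 ± 0.065 and 1.16 ± 0.066 on the log2 scale. Nucleotide excision repair had 6 higher and 3 lower of 19 under CO-CM and 5 higher and 4 lower under PH-CM, with medians of 0.08 and -0.11. Base excision and single-strand break repair had 10 and 12 lower of 20 and 3 higher under each medium, with Ung, the uracil glycosylase, at -3.65 ± 0.201 and -4.42 ± 0.216. Among 14 tested targets of p53, 4 were higher and 4 lower under CO-CM and 3 higher and 5 lower under PH-CM. These counts were near the shares over all genes tested. Cdkn1a, the cell cycle inhibitor, was at -1.26 ± 0.089 under CO-CM and -0.67 ± 0.088 under PH-CM.

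**Figure D5:**
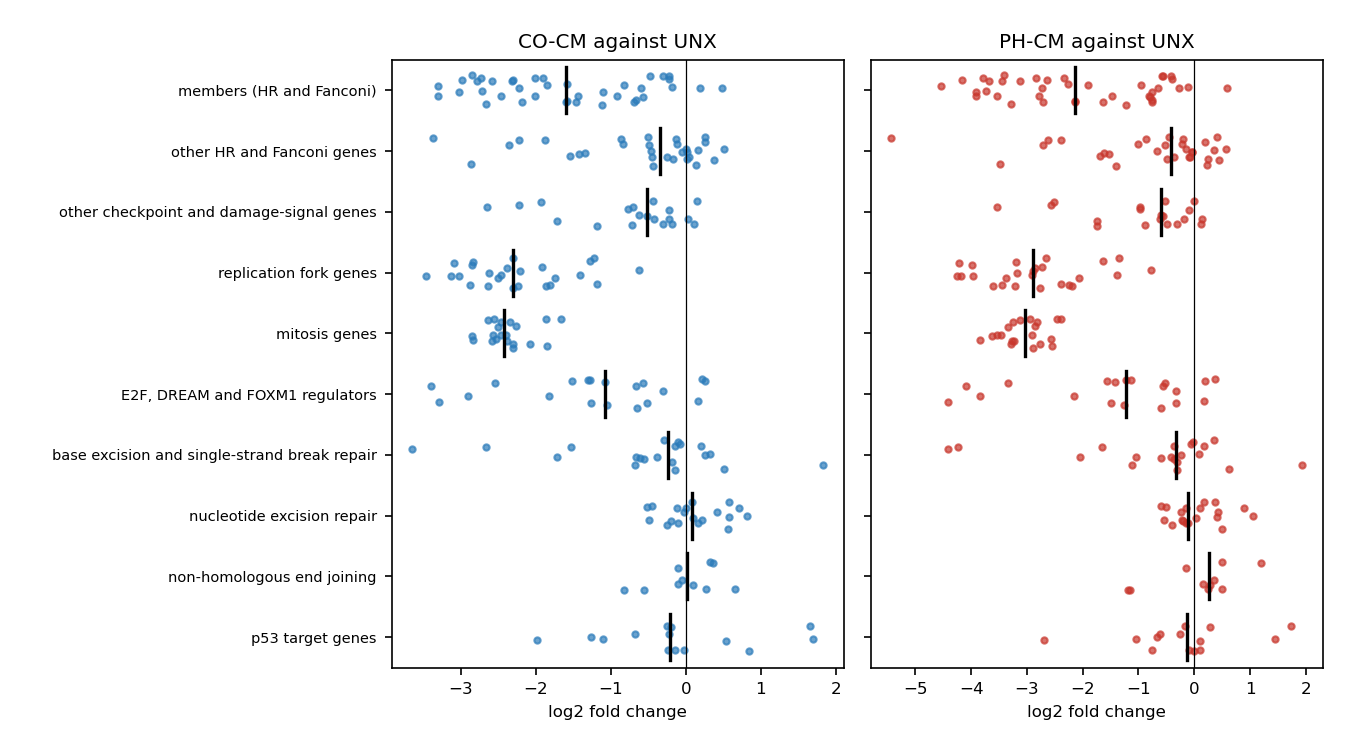
Log2 fold change against UNX of every tested gene in the 39 repair genes and 9 neighbouring lists, with CO-CM left and PH-CM right; points are genes with random vertical spread and bars are list medians. Replication fork and mitosis genes lie wholly below 0, with medians of -2.89 and -3.04 under PH-CM, the 39 repair genes spread from -4.54 to 0.59, and end joining and excision repair centre near 0.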

How the data were processed

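Reads were trimmed (AfterQC), mapped on GRCm38 (STAR) and summed over genes (featureCounts 1.6.2) by the authors. The deposited counts are raw whole numbers. Of counts under 20, 81.4% to 83.8% were even, and counting of both mates of a pair is probable but not stated. The deposited RPKM values are these counts divided by the authors by exon length and library size, and were used to compare levels between genes. Ranks and ratios between genes depend on those lengths. The length implied by the RPKM was not that of the annotation used here for Rbbp8 (3867 against 12521 bases), Msh6 (4254 against 4346) and Fance (3183 against 3192). Their comparison tables hold fold changes and p-values of their own test and were not used. No column of per-sample values was left out.

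The analysis used edgeR 4.0.16 in R 4.3.3. The filter required a CPM over 1 in 3 or more libraries, which 11950 genes passed, and TMM gave the scaling. All 9 libraries entered 1 quasi-likelihood fit with group means, and FDR is the Benjamini-Hochberg value over all genes tested. Errors are SE of the fit, n = 3 per group, and 95% intervals use its t distribution. An exact permutation test of 3 against 3 cannot go below p = 0.1 and was not used. The script was tested on simulated counts. Alternatives included DESeq2 1.42.0 on the same counts.

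Groups and replicate numbers came from the sample titles. The study repeated its experiment for the replicates, and p-values measure only the spread between these samples. No replicate pair agreed within sampling noise (chi-square per gene of at least 10.6). Same-numbered libraries deviated together (r = 0.276 to 0.484 over genes, all above 0.1; over the 39 genes alone, -0.078 to 0.390), so the numbers pair the libraries. Printed values come from the fit without the pairing, and the replicate block was run as an alternative.

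The members, lists and motif words were chosen with earlier results of these data known. All members are named, and of each other list at most 4 called genes with the largest change, apart from those said to be named after their values were seen. Gene positions and exon overlaps came from GENCODE annotation of GRCm38. The list of mismatch repair genes is not reported here.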

Additional observations from a re-analysis of the deposited data

How the results depend on the processing

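Counts of called genes among the 39 were computed under 10 other settings of test, scaling, filter, threshold or samples, under the replicate block, and with each library left out in turn. Under a fold change of at least 2, PH-CM against UNX gave 25 of 39 (all lower), PH-CM against CO-CM 6 (all lower) and CO-CM against UNX 26, because that threshold is stricter. Leaving out 1 library gave 34 to 36 calls for CO-CM against UNX, 37 to 38 for PH-CM against UNX and 15 to 22 for PH-CM against CO-CM, the lowest without the third CO-CM or the third PH-CM library. Leaving the third group out of the fit gave 35, 38 and 17, in the order of these comparisons. With the pairing of replicate numbers as a replicate block the counts were 35, 38 and 23, and no call changed. The shares of all genes called, given earlier, belong to the main fit at 1.2-fold and do not apply to these other settings.

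Against UNX, 34 of 35 calls under CO-CM and 37 of 38 under PH-CM held in every alternative that kept the fold threshold. Upper-quartile scaling removed Fancc under CO-CM (-0.25, FDR = 0.0617) and Fance under PH-CM (-0.24, FDR = 0.0310, under the fold threshold), and library size alone added Fancg (-0.29) and Xrcc3 (-0.28) under CO-CM. Sign changed only for genes not called between the media: Atm (0.03 without the first CO-CM and without the third PH-CM library, range -0.13 to 0.03 with 1 library left out) and Msh6 (0.01 without the third CO-CM library, 0.00 without the third PH-CM library, range -0.09 to 0.01). The cause was not tested. The fits without 1 library leave 2 in a group. The depth limits Rad51b, Rad51c and Chek1, which lay below 1 CPM in PH-CM.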
